A study of Homo sapiens and Mus musculus with 24 samples.

Results

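Neuro2a is a cell line derived from a mouse neuroblastoma, a tumour of the sympathetic nervous system, and is often used in the laboratory in place of neurons. To describe how the baseline RNA of this line differs from that of cultured neurons, the 3 nonirradiated Neuro2a libraries were compared with the 3 nonirradiated libraries of primary hippocampal culture (HippCulture), which together are 6 of the 24 libraries of the series. The series sequenced the RNA that stays in the aqueous phase after UV crosslinking, and the nonirradiated cells were its controls. Neuro2a cells were grown in DMEM/Ham's F-12 medium with fetal bovine serum. HippCulture was prepared from the hippocampus of C57/BL6NCr embryos at embryonic day 16.5, grown in Neurobasal medium with B27 and horse serum, and given AraC, a drug that kills dividing cells, to deplete glia. The labels name no genetic change in the cells, and none of these 6 cultures was exposed to UV light. Neuro2a stands for 1 line only. The study calls its replicates biological, but no source says whether the libraries of either cell type came from separate cultures or litters, so p-values measure the spread between these libraries.

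Genes were kept when their mean CPM (counts scaled to the library total) reached 0.5 in at least 1 of the cell types, which left 20940 of the 53715 annotated mouse genes. Of these, 14973 reached the limit in both cell types, 2452 in Neuro2a only and 3515 in HippCulture only. Genes of the last 2 kinds passed through the type in which they are high. The filter thus fixed the direction of their difference in mean CPM, and they are given below by their values. Because bulk RNA was measured, a lower level from fewer cells of a type cannot be told apart from a lower level in each cell.

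As background, the sympathetic lineage arises from the neural crest and is specified by the transcription factors such as Phox2a, Hand2, Gata2, Gata3 and Isl1. Its cells make noradrenaline and store it in dense-core vesicles filled with chromogranins. Hippocampal neurons arise from the dorsal forebrain under factors such as Emx1, Emx2 and Lhx2, are mostly glutamatergic with a minority of GABAergic interneurons, and communicate at synapses built by families of scaffold and adhesion proteins. Neurons leave the cell cycle for good when they are born, whereas a tumour line keeps dividing.

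The 6 libraries held between 7450065 and 9163323 counts on genes, and between 25535 and 28005 genes had a count. Pearson's r of log2 levels ran from 0.986 to 0.990 within a cell type and from 0.634 to 0.648 between them. Protein-coding genes took 75.1% ± 1.0 of the counts in Neuro2a and 74.1% ± 4.3 in HippCulture (SD, n = 3 each), and the 3 genes that hold ribosomal RNA sequence (Gm42418, AY036118 and CT010467.1) took 14.8% to 17.1% except in HippCulture replicate 3, where they took 24.2%. These 3 genes overlap on chromosome 17, with 99.5%, 100% and 73.9% of their exon bases shared in that order. Reads counted for more than 1 of them enter their summed share and the library total repeatedly, so that share is inflated. Gm26917, which ends just before CT010467.1 on chromosome 17, was counted among the long noncoding RNA genes. It took 0.564% of counts in Neuro2a and 0.367% in HippCulture, and whether these are reads of ribosomal RNA was not tested. The share of long noncoding RNA genes was 3.37% ± 0.02 against 2.92% ± 0.27, a difference of 0.443 percentage points with an exact two-sided permutation p of 0.1, the smallest that 3 against 3 libraries can give, and 0.233 after Benjamini-Hochberg adjustment over 7 classes. That difference was 0.290 without HippCulture replicate 3. HippCulture replicate 2 stood apart in genes of glucose use, and the fold changes of several of them are given below with and without it.

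Levels are given as normalized RPKM, the count divided by the kilobases of exon and by the library's effective size (its total times its TMM factor) on the usual RPKM scale, always in the order of replicates 1, 2 and 3, and library values joined by "against" give Neuro2a first. A fold change is the log2 ratio of Neuro2a over HippCulture from edgeR's quasi-likelihood test, followed by its standard error, so that a positive value means a higher level in Neuro2a. A gene is called higher in a cell type when its Benjamini-Hochberg adjusted p over all 20940 genes is under 0.05. Where a gene had no count in any library of a cell type, the fold is a lower bound set against 3 counts over that group, and where it had 1 to 3 counts there, the ratio is given with its 95% counting interval, which covers counting error only. Reads were counted without regard to strand, so reads on exon bases that belong to more than 1 gene went to each of them, and that share of a gene's exon bases is given where it is large.

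By this test 8174 genes (39.0%) were higher in Neuro2a and 8660 (41.4%) were higher in HippCulture, while 4106 (19.6%) were not called. At least 4-fold differences were called for 3094 genes (14.8%) in favour of Neuro2a and for 4685 (22.4%) in favour of HippCulture. The median log2 fold change over all tested genes was -0.02 and the median of its size was 1.34. In Neuro2a 866 of the tested genes had no count in any library, and in HippCulture 442 had none. Each count of list members below is to be read against these 4 percentages, and each median against -0.02.

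**Figure D1:**
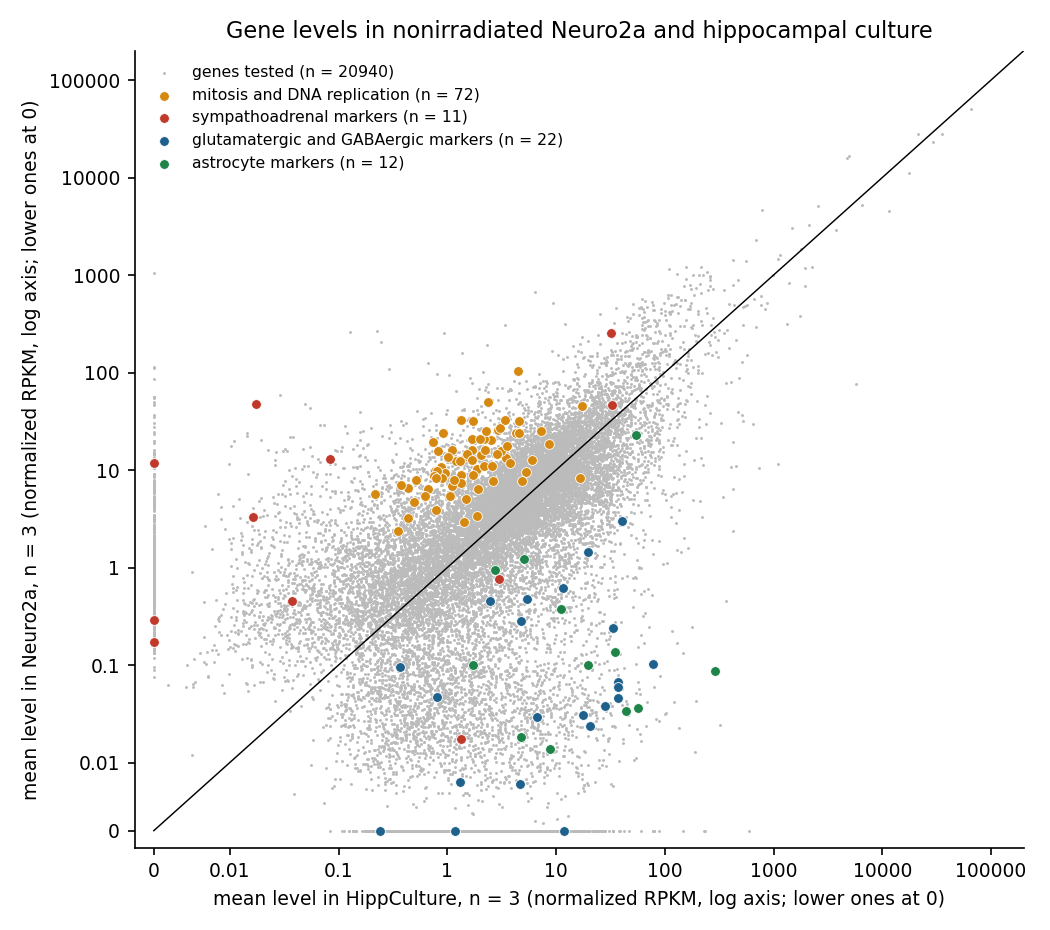
Mean normalized RPKM in HippCulture (horizontal, log scale) and Neuro2a (vertical, log scale) for the 20940 tested genes, with genes at 0 drawn at the lower edge of an axis. Orange points are 72 mitosis and replication genes, 71 of them called higher in Neuro2a, red points are 11 sympathoadrenal markers, blue points are 22 glutamatergic and GABAergic markers and green points are 12 astrocyte markers, and all the blue and green genes were called higher in HippCulture.

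The largest differences toward Neuro2a among abundant protein-coding genes joined a secreted Wnt antagonist, germ cell genes and a sympathetic transcription factor. Dkk1, which blocks the Wnt co-receptor (chr19:30545863-30549665), measured 105, 123 and 111 in Neuro2a and 0 in all 3 in HippCulture, which is at least 2168-fold higher in Neuro2a. Il6, a cytokine gene, measured 27.3, 37.7 and 45.5 in Neuro2a and 0 in all 3 in HippCulture and was at least 698-fold higher. Asz1, of the piRNA pathway of male germ cells, reached 34.1, 34 and 38.1 in Neuro2a and had no count in HippCulture. Sohlh2, a factor of germ cell differentiation, reached 30.6, 31.1 and 29.8 and had none either. Hand2 (chr8:57320983-57324633), which drives the noradrenergic programme, measured 46.5, 46.4 and 48.2 in Neuro2a and 0.0523, 0 and 0 in HippCulture, a ratio of 2609-fold, with a 95% counting interval of 468 to 103082, and 19.6% of its exon bases are shared. The list also held Nxf3, a relative of the mRNA export factor, at 51.1, 60 and 64.2 in Neuro2a and 0, 0.0861 and 0 in HippCulture. The ribosomal protein paralog Rpl39l measured 44.2, 53.6 and 52.5 in Neuro2a. Cox7b2, a paralog of a cytochrome oxidase subunit, measured 44.4, 49.8 and 45.5, and neither of these genes had a count in HippCulture. Rhox2d, Gm364, Gm49391 and Gm49393 complete the 12 genes. All exon bases of Gm49391 and of Gm49393 also belong to other genes, so their counts are uncertain.

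In the other direction, the 12 genes with the largest difference were genes of neurons and of secreted factors. Ndn, a paternally expressed gene of postmitotic neurons (chr7:62346569-62350262), measured 0 in all 3 in Neuro2a and 85.7, 91.4 and 90.4 in HippCulture and was at least 2875-fold higher in HippCulture. The neuronal membrane protein gene Gpm6a measured 0, 0.0327 and 0.0399 in Neuro2a and 321, 307 and 332 in HippCulture. Bhlhe22, a transcription factor of cortical neurons, reached 80, 76.2 and 79.1 in HippCulture without a count in Neuro2a, which is at least 2293-fold higher. The protocadherin gene Pcdh8 reached 35.4, 40.9 and 38.7, again with no count in Neuro2a. Neither Glrb, a glycine receptor subunit gene, nor Igfbp3, which encodes a binding protein of insulin-like growth factors, had one. Glrb reached 22.6, 22.5 and 20.5 and Igfbp3 32.5, 34.4 and 32.7 in HippCulture. Rtn1, a reticulon of the neuronal endoplasmic reticulum, measured 0, 0.0422 and 0.0258 in Neuro2a and 134, 134 and 141 in HippCulture. Sphkap, Lonrf2, Fam19a2 and Ccn3 were also among them, none with a count in Neuro2a, and Sphkap was at least 2069-fold higher.

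Pan-neuronal genes were lower in Neuro2a, but several of them were well expressed in Neuro2a too. Of 14 neuron markers 13 were called higher in HippCulture, 10 of them at least 4-fold, none was higher in Neuro2a, and the median log2 fold change was -2.49 against -0.02 over all genes. Dcx, a microtubule protein of migrating young neurons, measured 0.00889, 0.0083 and 0 in Neuro2a and 35.9, 30.2 and 34 in HippCulture. Rbfox3, the NeuN antigen and a splicing regulator, measured 0.116, 0.0361 and 0.0221 in Neuro2a and 8.52, 9.79 and 9.75 in HippCulture (log2 fold change -7.25 ± 0.23), a fold change that becomes -8.17 without Neuro2a replicate 1. Map2, which binds dendritic microtubules, measured 4.53, 5.18 and 4.99 in Neuro2a and 109, 95.8 and 105 in HippCulture (log2 fold change -4.40 ± 0.10). These genes separate the cell types in every library.

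Tubb3, the neuronal beta-tubulin often stained to mark neurons, measured 277, 322 and 279 in Neuro2a and 666, 681 and 743 in HippCulture (log2 fold change -1.25 ± 0.09). For Stmn2, a growth cone protein, the levels were 46.3, 60.7 and 56.4 against 93.5, 87.9 and 94.5 (log2 fold change -0.75 ± 0.09). Ncam1, a cell adhesion molecule, measured 34.1, 35.3 and 35 in Neuro2a and 151, 155 and 158 in HippCulture (log2 fold change -2.15 ± 0.08). Elavl4, the HuD RNA-binding protein, was the 1 marker not called, at 9.18, 14 and 12.3 against 11.3, 9.01 and 10.8, and its groups overlapped (log2 fold change 0.19 ± 0.13, adjusted p = 0.17). It was called higher in Neuro2a when libraries were scaled by their totals alone (0.33 on the log2 scale) and without Neuro2a replicate 1 (0.34). The summed level of the list was 446 to 517 in Neuro2a and 1569 to 1677 in HippCulture.

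Genes that mark the transmitter classes of forebrain neurons were lower in Neuro2a, many of them at or near 0. All 10 glutamatergic markers were called higher in HippCulture, each at least 4-fold, with a median log2 fold change of -7.08, and their summed level was 235 to 251 there and 5.73 to 6.25 in Neuro2a. Slc17a7, the vesicular glutamate transporter VGLUT1, measured 0, 0.0195 and 0.0953 in Neuro2a and 27.5, 27.8 and 28.5 in HippCulture (log2 fold change -9.51 ± 0.22, or -11.09 without Neuro2a replicate 3). Neurod6, a transcription factor of pyramidal neurons, measured 0.105, 0.146 and 0.0597 in Neuro2a and 78.3, 73.8 and 82.3 in HippCulture (log2 fold change -9.43 ± 0.18). Camk2a, the postsynaptic kinase, measured 1.46, 1.2 and 1.65 in Neuro2a and 19.5, 19.1 and 20.1 in HippCulture (log2 fold change -3.78 ± 0.11). In Neuro2a 4 of the 10 reached the limit of 0.5 CPM. The other 6 were tested only through HippCulture, which fixed their direction in mean CPM.

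All 12 GABAergic markers were also higher in HippCulture, 11 of them at least 4-fold, with a median log2 fold change of -7.24, or -6.11 with genes at 0 set to their bound. Only 3 of the 12 reached the limit in Neuro2a. The other 9 were tested through HippCulture alone, which fixed their direction in mean CPM. Slc32a1, the vesicular GABA transporter, measured 0 in all 3 in Neuro2a and 12.1, 12.4 and 11.2 in HippCulture and was at least 291-fold higher, and 24.9% of its exon bases overlap another gene. Gad1, which makes GABA, measured 0, 0.0412 and 0.0504 in Neuro2a and 17.2, 17.2 and 18.7 in HippCulture (log2 fold change -9.11 ± 0.21). The interneuron peptide gene Sst reached 37.2, 35.1 and 38.5 in HippCulture, where its 3 values were alike. Dlx5, a factor of interneuron precursors, rested on few counts in HippCulture and was at least 4.81-fold higher.

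Glial genes were present in HippCulture although AraC had been used. All 12 astrocyte markers were called higher there, 10 at least 4-fold, with a median log2 fold change of -7.74, and they summed to 467 to 565 in HippCulture against 20.5 to 31.5 in Neuro2a. Fabp7, a fatty acid binding protein of radial glia, measured 0.0899, 0.168 and 0 in Neuro2a and 325, 222 and 319.7 in HippCulture, lowest in HippCulture replicate 2. Slc1a3, the glutamate transporter GLAST of astrocytes, measured 0.0263, 0.0369 and 0.0451 in Neuro2a and 56.5, 56.7 and 56.6 in HippCulture (log2 fold change -10.56 ± 0.15). Gfap, the astrocyte intermediate filament, measured 0.08, 0.0996 and 0.122 in Neuro2a and 18.9, 20.3 and 19.8 in HippCulture (log2 fold change -7.58 ± 0.17). Of the 12, 5 reached the limit in Neuro2a, so the direction of the other 7 in mean CPM was fixed by the filter. Aldoc, the aldolase of astrocytes, had the most RNA in Neuro2a, at 17.1, 28.5 and 23.5. The part that glial cells have in the other differences toward HippCulture was not tested.

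Of 11 oligodendrocyte lineage markers 9 were tested, of which all reached the limit of 0.5 CPM in HippCulture and 6 in Neuro2a, and 8 were higher in HippCulture and Cnp was lower. Olig1, a transcription factor of the lineage, measured 0 in all 3 in Neuro2a and 23.3, 17.4 and 23.4 in HippCulture and was at least 405-fold higher, whereas the myelin gene Mbp was low in both cell types, at 0.482, 0.8 and 0.672 against 2.09, 2.95 and 2.45. The list summed to 42.3 to 49.2 in HippCulture and 13.4 to 14.0 in Neuro2a, and Mag had no count in HippCulture. The part of these cells in the other differences was not tested.

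Most microglial genes were below the limit. Of 12 markers 5 were tested, 4 past the limit in Neuro2a and 3 in HippCulture, and Cx3cr1, Itgam, C1qa, C1qb, C1qc, Ptprc and Trem2 were not. Tmem119, C1qb and Trem2 had no count in HippCulture. P2ry12, a microglial purine receptor, measured 0.193, 0.258 and 0.3 in HippCulture and had no count in Neuro2a. The summed level was 37.5 to 46.0 in Neuro2a and 6.75 to 10.6 in HippCulture, spread unevenly over the members. The part of microglia in the differences was not tested.

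Endothelial markers stayed under 2 RPKM in every library. Of 8 genes 5 were tested, 4 higher in Neuro2a and Kdr higher in HippCulture, and Cdh5, Cldn5 and Emcn were not tested. The call for Flt1 is lost without Neuro2a replicate 2 or 3 or HippCulture replicate 1 or 3, which leaves 3 higher in Neuro2a. Also 3 were higher there with DESeq2 size factors, the DESeq2 test, no filter, the replicate block or without the genes of ribosomal RNA sequence. Pecam1 measured 1.3, 1.35 and 1.46 in Neuro2a and 0.118, 0.253 and 0.184 in HippCulture (log2 fold change 2.88 ± 0.25). Of 10 fibroblast and mural cell markers 9 were tested, 6 higher in HippCulture and 2 in Neuro2a, with summed levels of 60.9 to 75.1 in Neuro2a and 13.0 to 13.7 in HippCulture. Fn1, the extracellular matrix protein fibronectin, made up most of that sum in Neuro2a, at 55.3, 69 and 67.6 in Neuro2a and 3.33, 4.1 and 3.37 in HippCulture (log2 fold change 4.15 ± 0.11), while the collagen gene Col3a1 measured 0.0115, 0 and 0.0392 in Neuro2a and 0.476, 0.334 and 0.376 in HippCulture. Of 6 choroid plexus and ependymal markers 4 were tested, 2 in each direction. Only 1 was higher in HippCulture without Neuro2a replicate 1 or 2 or HippCulture replicate 3. The same held with the DESeq2 test, the replicate block and library sizes alone. Without the genes of ribosomal RNA sequence 3 were higher there. Ttr, the defining gene of the choroid plexus, was at 0.0922, 0 and 0 in Neuro2a and 0, 0.108 and 0.209 in HippCulture and was not tested. The part of these cell types in the differences was not tested.

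**Figure D2:**
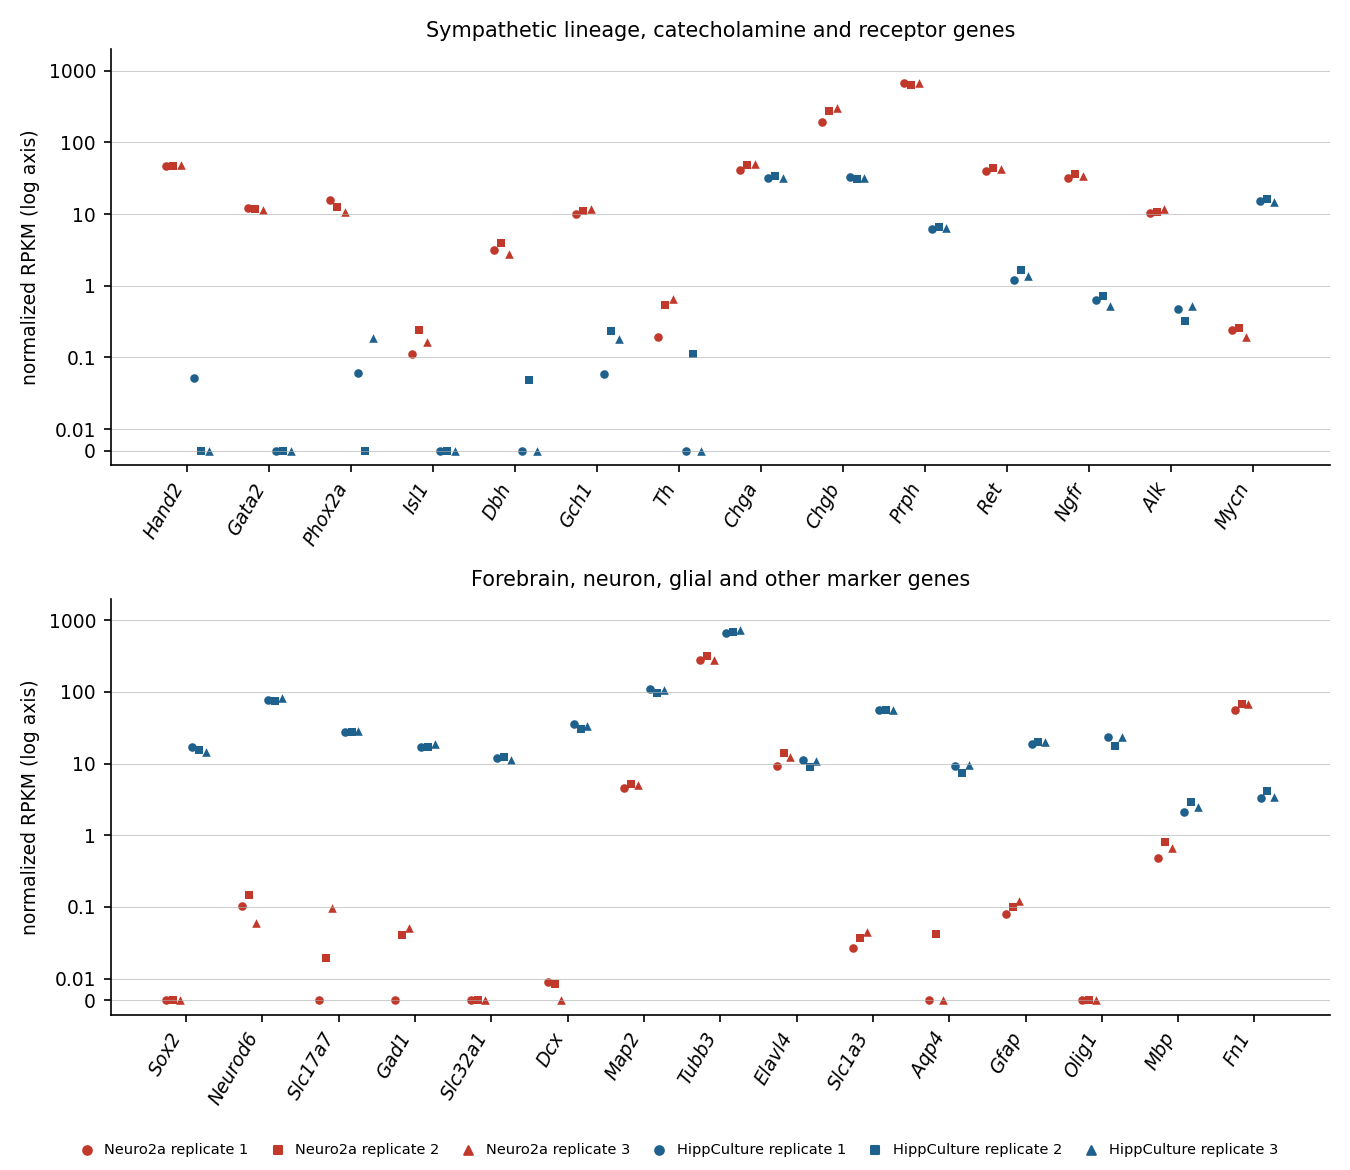
Normalized RPKM (log scale) of sympathoadrenal and growth factor receptor genes (top) and forebrain, neuronal and glial genes (bottom) in each library, 1 dot per library, with values of 0 drawn at the lower edge. Hand2 reads 46.4 to 48.2 in Neuro2a and at most 0.0523 in HippCulture, Mycn reads 14.6 to 16.2 in HippCulture and at most 0.255 in Neuro2a, and Sox2 has no count in Neuro2a.

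The transcription factors of the sympathetic lineage were present in Neuro2a in part. Of 14 sympathoadrenal markers 11 reached the limit, 10 in Neuro2a and 4 in HippCulture. Of the 11, 9 were called higher in Neuro2a, 8 of them at least 4-fold, and 2 higher in HippCulture, 1 of them at least 4-fold. Gata2, which acts with Hand2 in sympathetic precursors, measured 12.1, 11.7 and 11.6 in Neuro2a and 0 in all 3 in HippCulture and was at least 501-fold higher. Phox2a, the homeobox factor that activates noradrenaline synthesis genes, measured 15.7, 12.5 and 10.9 in Neuro2a and 0.0604, 0 and 0.188 in HippCulture (log2 fold change 7.17 ± 0.34, or 8.41 without HippCulture replicate 3). Isl1, a homeobox factor of sympathetic and other neurons, was at 0.114, 0.239 and 0.162 in Neuro2a with no count in HippCulture. Gata3, Hand1 and Tlx2 did not reach the limit in either cell type.

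Insm1, a zinc finger factor of neuroendocrine cells, was higher in HippCulture, at 0.725, 0.643 and 0.911 against 2.93, 3.3 and 2.67 (log2 fold change -1.97 ± 0.21). Hand2os1, the noncoding RNA transcribed beside Hand2, followed Hand2 with 11, 12.5 and 11.4 in Neuro2a and 0.0191, 0.0102 and 0 in HippCulture. The summed level of the 14 markers was 312 to 425 in Neuro2a and 67.7 to 69.8 in HippCulture, and the chromogranins Chga and Chgb made up most of it.

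Myc family genes differed in both directions. Mycn, the oncogene amplified in many human neuroblastomas, measured 0.239, 0.255 and 0.195 in Neuro2a and 15.4, 16.2 and 14.6 in HippCulture (log2 fold change -6.03 ± 0.17, adjusted p = 3.8e-16). Mycl followed it at 0.334, 0.338 and 0.604 against 15.6, 16.9 and 18 (log2 fold change -5.32 ± 0.16). Myc itself was higher in Neuro2a, at 23.9, 25.2 and 20.8 against 4.34, 4.15 and 4.03 (log2 fold change 2.48 ± 0.11, adjusted p = 2.7e-13). For none of these 3 genes did the groups overlap. Within the wider list of 28 neural crest and sympathetic factors, 20 were tested, 9 higher in Neuro2a and 11 in HippCulture, with 15 past the limit in Neuro2a and 13 in HippCulture. Meis1, a homeobox cofactor, was higher in Neuro2a at 5.08, 6.39 and 5.18 against 0.187, 0.199 and 0.242 (log2 fold change 4.72 ± 0.16), while its paralog Meis2 was higher in HippCulture at 0.961, 0.689 and 0.693 against 4.72, 4.61 and 4.52 (log2 fold change -2.56 ± 0.12). Lmo1, a neuroblastoma susceptibility gene, measured 12.6, 13.4 and 13.7 in Neuro2a and 25.1, 27.8 and 31.8 in HippCulture (log2 fold change -1.10 ± 0.11). Its relative Lmo3 measured 0.0219, 0.0409 and 0 in Neuro2a and 14.7, 12.1 and 14.9 in HippCulture. Sox10, a factor of neural crest and of oligodendrocytes, measured 0, 0.0344 and 0.0842 in Neuro2a and 0.886, 0.645 and 0.917 in HippCulture, a ratio of 21.8-fold, with a 95% counting interval of 7.11 to 109 toward HippCulture, and the crest genes Foxd3, Snai1, Snai2, Twist1 and Tfap2a were not tested.

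Forebrain transcription factors were mostly higher in HippCulture. All 28 reached the limit there and 14 did in Neuro2a. Of the 28, 25 were called higher in HippCulture, 24 at least 4-fold, with a median log2 fold change of -6.63, or -5.80 with genes at 0 set to their bound. Sox2, a factor of neural stem cells and astrocytes, measured 0 in all 3 in Neuro2a and 16.9, 15.3 and 14.4 in HippCulture and was at least 279-fold higher. Lhx2, a selector of cortex and hippocampus, measured 0.205, 0.239 and 0.234 in Neuro2a and 19.8, 21 and 21.6 in HippCulture (log2 fold change -6.50 ± 0.14). Zbtb20, needed for hippocampal CA1 identity, measured 1.15, 1.09 and 1.08 in Neuro2a and 14.4, 10.8 and 14.1 in HippCulture (log2 fold change -3.56 ± 0.11). Prox1, a factor of dentate granule cells, measured 0.0938, 0.113 and 0.0306 in Neuro2a and 1.77, 1.36 and 1.62 in HippCulture (log2 fold change -4.25 ± 0.27).

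Exceptions within this list were few. Sox4, a factor of immature neurons, was slightly higher in Neuro2a at 36.9, 42.6 and 39.1 against 32.7, 32 and 31.7 (log2 fold change 0.30 ± 0.08), a call that is lost without Neuro2a replicate 2 (adjusted p 0.0663), and 54.6% of its exon bases overlap another gene. Pax6, of dorsal progenitors, measured 0.865, 0.871 and 0.56 in Neuro2a and 0.494, 0.482 and 0.653 in HippCulture (log2 fold change 0.51 ± 0.20, adjusted p = 0.026), and its call is lost without any 1 of 4 libraries (adjusted p 0.0869 to 0.173), with the DESeq2 test (0.116) and with at least 10 counts in every sample (0.0723). Eomes was not called.

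Hox genes, which mark positions along the hindbrain, spinal cord and trunk and are silent in the forebrain, were tested for 6 of 39, all through Neuro2a and all in the Hoxc cluster (chr15:102966796-103036852). All 6 were higher in Neuro2a. Hoxc9 measured 2.96, 3.02 and 3.65 in Neuro2a and 0 in all 3 in HippCulture and was at least 61-fold higher. Hoxc10 measured 2.83, 2.25 and 1.95 in Neuro2a and was at least 35.4-fold higher. Hoxc6 measured 1.77, 1.74 and 1.6 in Neuro2a and 0, 0 and 0.0528 in HippCulture. None of the Hoxa, Hoxb or Hoxd genes reached the limit in either cell type, nor did Hoxc11, Hoxc12 or Hoxc13.

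The enzymes that make noradrenaline were expressed unevenly in Neuro2a. Of 18 genes of catecholamine synthesis and storage 16 were tested, 9 higher in Neuro2a, 5 in HippCulture and 2 not called. Th, the rate-limiting tyrosine hydroxylase, measured 0.19, 0.533 and 0.652 in Neuro2a and 0, 0.111 and 0 in HippCulture, a ratio of 12.6-fold, with a 95% counting interval of 3.18 to 109 that rested on 4, 12 and 12 counts in Neuro2a. Dbh, which converts dopamine to noradrenaline, measured 3.13, 3.94 and 2.81 in Neuro2a and 0, 0.0487 and 0 in HippCulture, a ratio of 212-fold, with a 95% counting interval of 37.6 to 8400.0. Gch1, the first enzyme of the tetrahydrobiopterin cofactor of Th, measured 10.1, 11.2 and 11.6 in Neuro2a and 0.059, 0.231 and 0.183 in HippCulture (log2 fold change 6.12 ± 0.19). Ddc, the decarboxylase between Th and Dbh, was low in both at 0.151, 0.282 and 0.259 against 0.276, 0.324 and 0.342 and was not called.

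Storage proteins of dense-core vesicles were abundant. Chgb, a chromogranin, measured 192, 274 and 299.9 in Neuro2a and 33.4, 31.1 and 31.6 in HippCulture (log2 fold change 2.99 ± 0.13, adjusted p = 2.2e-13). Secretogranin Scg2 measured 206, 276 and 281 in Neuro2a and 38.3, 41.3 and 41.6 in HippCulture (log2 fold change 2.65 ± 0.11). The vesicular monoamine transporter Slc18a2 did not separate the cell types, at 1.63, 2.04 and 1.08 in Neuro2a and 1.71, 1.86 and 1.44 in HippCulture (log2 fold change -0.06 ± 0.22, adjusted p = 0.81). Maoa, which degrades monoamines, was higher in HippCulture at 0.351, 0.554 and 0.585 against 11.9, 10.3 and 10.9 (log2 fold change -4.47 ± 0.16). So was its paralog Maob, at 0 in all 3 against 0.485, 0.423 and 0.593. Neither the noradrenaline transporter Slc6a2 nor Pnmt, the enzyme that makes adrenaline, reached the limit.

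For acetylcholine, 14 of 20 genes were tested, 11 higher in HippCulture and 2 in Neuro2a. Chrna3, the nicotinic receptor subunit of autonomic ganglia, was higher in Neuro2a, at 4.4, 6.14 and 6.73 against 0.233, 0.15 and 0.362 (log2 fold change 4.51 ± 0.24, adjusted p = 4e-12). Chat, which makes acetylcholine, was at 0.143, 0.112 and 0.164 in Neuro2a and 0 in all 3 in HippCulture, which is at least 5.11-fold higher. Chrna4, a nicotinic subunit of the brain, was higher in HippCulture, at 0.134, 0.125 and 0.128 against 3.62, 4.44 and 4.13 (log2 fold change -4.94 ± 0.22). Chrm3, a muscarinic receptor gene, was higher there too, at 0.126, 0.134 and 0.103 against 3.79, 3.36 and 3.68 (log2 fold change -4.86 ± 0.20). The muscarinic receptor Chrm4 was not called, at 8.74, 8.75 and 6.33 against 8.28, 8.47 and 8.92 (log2 fold change -0.10 ± 0.15, adjusted p = 0.55). Slc18a3 and Slc5a7, the vesicular and plasma membrane transporters of the cholinergic neuron, were not tested.

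**Figure D3:**
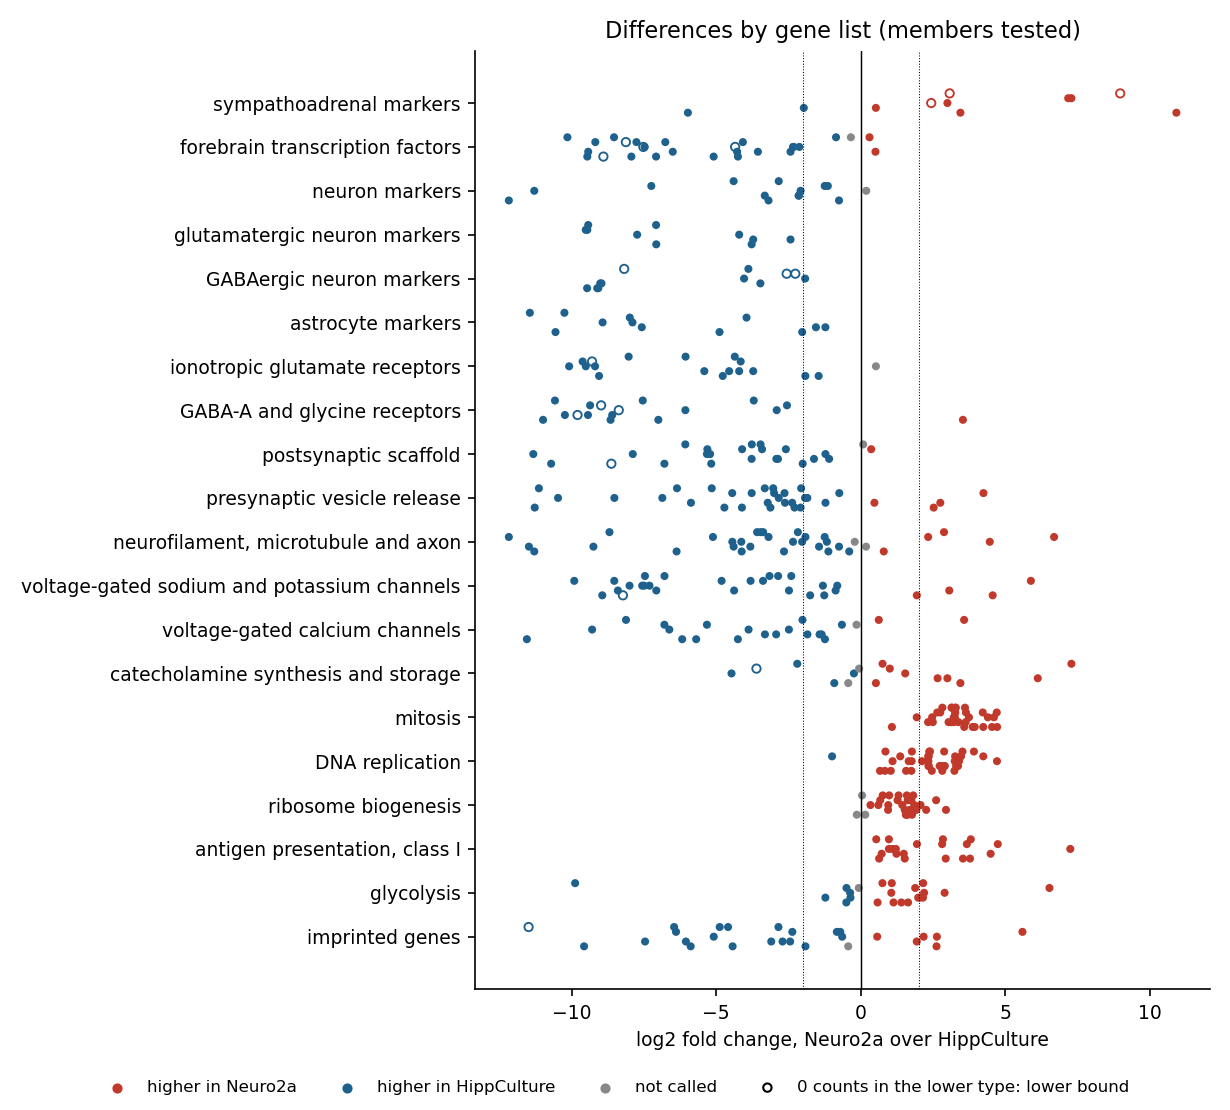
Log2 fold change of Neuro2a over HippCulture for every tested member of 20 gene lists, 1 dot per gene, with dotted lines at -2 and 2 and open symbols for genes at 0 in the lower cell type, drawn at their lower bound. Mitosis and replication genes lie to the right apart from Rfc5, receptor and synapse genes lie mostly to the left, and genes of catecholamine synthesis and storage lie on both sides of 0.

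Receptors for the fast transmitters were lower in Neuro2a across whole families. Of 18 ionotropic glutamate receptor genes 17 were called higher in HippCulture, 15 at least 4-fold, with a median log2 fold change of -5.09. All 18 reached the limit in HippCulture and 10 in Neuro2a. Gria1, a subunit of AMPA receptors, measured 0.0558, 0.122 and 0.127 in Neuro2a and 57.3, 52.7 and 54.9 in HippCulture (log2 fold change -9.05 ± 0.16). Grin2b, the NMDA receptor subunit of young neurons, measured 0.0272, 0.0465 and 0.0362 in Neuro2a and 31.6, 25.7 and 31.3 in HippCulture (log2 fold change -9.62 ± 0.17). Gria4 had no count in Neuro2a and was at least 628-fold higher in HippCulture. Gria2 and Grik5 were the subunits with the most RNA in Neuro2a. Gria2, which sets the calcium permeability of AMPA receptors, measured 2.95, 3.45 and 2.68 in Neuro2a and 41.7, 37.5 and 40.8 in HippCulture. Grik5, a kainate receptor subunit, measured 4.61, 4.29 and 4.99 in Neuro2a and 12.7, 12.2 and 13.2 in HippCulture. Grin3b was not called.

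GABA-A and glycine receptor genes followed the same direction, with 16 of the 17 tested genes higher in HippCulture, all at least 4-fold. The limit was reached by 16 in HippCulture and by 4 in Neuro2a, so most were tested only because they are high in HippCulture. Gabra5, an alpha subunit of hippocampal GABA-A receptors, measured 0.0378, 0.0353 and 0 in Neuro2a and 46.7, 44.5 and 49.6 in HippCulture. Gabra2 measured 0.0294, 0.0412 and 0 in Neuro2a and 33.3, 27.9 and 36 in HippCulture (log2 fold change -10.23 ± 0.22, or -10.89 without Neuro2a replicate 2). Glra4 was the 1 gene higher in Neuro2a, from 4, 8 and 5 counts against 1, 0 and 0.

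Scaffolds of the postsynapse were lower in Neuro2a in 22 of 24 genes, 19 of them at least 4-fold, with a median log2 fold change of -3.77. All 24 reached the limit in HippCulture and 20 in Neuro2a. Shank3, a master scaffold of the excitatory postsynapse, measured 0.257, 0.32 and 0.252 in Neuro2a and 10.6, 10.4 and 10.1 in HippCulture (log2 fold change -5.21 ± 0.12). Nlgn1, a neuroligin that bridges the synaptic cleft, measured 0, 0.00782 and 0 in Neuro2a and 10.7, 9.34 and 10.5 in HippCulture, a ratio of 3584-fold, with a 95% counting interval of 643 to 141610.0. The PSD-95 gene Dlg4 differed less, at 9.05, 11 and 11.1 against 30.8, 33.4 and 31.6 (log2 fold change -1.62 ± 0.09). So did Gphn, the gephyrin scaffold of inhibitory synapses, at 11.7, 11.8 and 10.6 in Neuro2a and 23.8, 25 and 24.1 in HippCulture (log2 fold change -1.10 ± 0.08). Dlg1, a relative of PSD-95 with roles in epithelia, was higher in Neuro2a at 6.84, 7.29 and 7.09 against 5.39, 6.02 and 5.15 (log2 fold change 0.36 ± 0.09), and Homer3 was not called.

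Presynaptic release genes divided by paralog. Of 32 genes 28 were higher in HippCulture, 24 at least 4-fold, with a median log2 fold change of -3.01, and 4 were higher in Neuro2a. All 32 reached the limit in HippCulture and 27 in Neuro2a. Among vesicle proteins, Sv2b measured 0.0537, 0 and 0.0153 in Neuro2a and 36, 29.9 and 38.7 in HippCulture and was higher in HippCulture. Sv2a, also higher in HippCulture, measured 5.63, 6.43 and 5.73 in Neuro2a and 51.9, 58.2 and 55.9 in HippCulture. Their paralog Sv2c went the other way, at 11.8, 14.2 and 13.2 against 0.76, 0.73 and 0.577 (log2 fold change 4.24 ± 0.12, adjusted p = 4.6e-16). Vamp2, the brain synaptobrevin, measured 3.66, 2.67 and 3.84 in Neuro2a and 19.2, 19.6 and 23.5 in HippCulture (log2 fold change -2.62 ± 0.13). Its paralog Vamp1 measured 2.91, 4.23 and 4.95 in Neuro2a and 0.653, 0.8 and 0.651 in HippCulture (log2 fold change 2.52 ± 0.18). The calcium sensor Syt1 was higher in HippCulture at 9.05, 11.5 and 11.3 against 46.6, 40.1 and 48.4 (log2 fold change -2.08 ± 0.10). Syt2, a calcium sensor of fast hindbrain synapses, was higher in Neuro2a at 1.09, 1.4 and 1.34 against 0.129, 0.189 and 0.25 (log2 fold change 2.75 ± 0.24). For the active zone proteins, Rims1 measured 0.0153, 0 and 0 in Neuro2a and 18.3, 18.1 and 17.4 in HippCulture. Rims2 measured 8.29, 7.34 and 7.9 in Neuro2a and 5.69, 5.46 and 5.83 in HippCulture (log2 fold change 0.47 ± 0.08). Unc13a, which primes vesicles for release, remained at 20.2, 18.4 and 18 in Neuro2a and 31.3, 31.8 and 31.6 in HippCulture (log2 fold change -0.74 ± 0.08). In each of these pairs the values of the cell types did not overlap.

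Paralogs of the cytoskeleton differed in direction as well. Of 34 genes 27 were higher in HippCulture, 20 at least 4-fold, and 5 in Neuro2a, with a median log2 fold change of -2.50. Peripherin, encoded by Prph and an intermediate filament of peripheral neurons, measured 669, 639 and 681 in Neuro2a and 6.21, 6.69 and 6.43 in HippCulture (log2 fold change 6.68 ± 0.11, adjusted p = 5.9e-19). The neurofilament gene Nefl measured 0.0333, 0 and 0.038 in Neuro2a and 64, 69.2 and 70.3 in HippCulture. Its partner Nefm measured 0.0389, 0.0363 and 0.0222 in Neuro2a and 20.5, 22.3 and 22.1 in HippCulture. Nefh, the heavy neurofilament, was higher in Neuro2a at 20.4, 12.2 and 11.7 against 2.22, 1.81 and 2.01 (log2 fold change 2.88 ± 0.20). Kif1a, the axonal motor that carries synaptic vesicle precursors, measured 0.0241, 0.045 and 0.055 in Neuro2a and 115, 123 and 126 in HippCulture (log2 fold change -11.48 ± 0.16). Nefl overlaps another gene over 32.8% of its exon bases.

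Among tubulins, Tubb2a was higher in HippCulture, at 34, 43 and 32.7 against 499.7, 506 and 548 (log2 fold change -3.82 ± 0.11). So was Tubb2b, at 23.3, 35.5 and 30.8 against 604, 689 and 657 (log2 fold change -4.44 ± 0.13). Tubb6 was higher in Neuro2a at 85.5, 69.7 and 55 against 3.92, 3.44 and 2.17 (log2 fold change 4.46 ± 0.18). Tubb5 was not called, at 496, 535 and 435 against 413, 435 and 445 (log2 fold change 0.18 ± 0.09, adjusted p = 0.073), and it was called higher in Neuro2a without Neuro2a replicate 3 (0.25), with library sizes alone (0.32) and with all 12 mouse samples (0.26). Tubulin paralogs are close in sequence, and since reads with several positions were not counted by the tool's default, their levels are uncertain. Vim, the intermediate filament of progenitors and mesenchymal cells, was higher in Neuro2a at 159, 173 and 156 against 29.9, 38.1 and 29.1 (log2 fold change 2.33 ± 0.10). Gap43, of growing axons, measured 35.9, 44.1 and 36.8 in Neuro2a and 457, 461 and 489 in HippCulture (log2 fold change -3.59 ± 0.10).

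Different voltage-gated sodium channel genes were high in each cell type. Scn9a, the sodium channel of sympathetic and sensory neurons, measured 7.75, 8.12 and 8.96 in Neuro2a and 0.115, 0.144 and 0.159 in HippCulture (log2 fold change 5.88 ± 0.14, adjusted p = 4.4e-17). Scn2a, the main sodium channel of young brain neurons, measured 1.25, 1.44 and 1.24 in Neuro2a and 28.3, 25.2 and 28.8 in HippCulture (log2 fold change -4.38 ± 0.10, adjusted p = 2.7e-17). Of 32 sodium and potassium channel genes 29 were tested, 25 higher in HippCulture and 4 in Neuro2a, and 28 reached the limit in HippCulture against 16 in Neuro2a. The potassium channel genes Kcna1, Kcna4 and Kcnd2 were at most 0.0408 in Neuro2a. Kcna1 reached 7.18, 7.08 and 7.26 in HippCulture, Kcna4 reached 11.1, 10 and 10.7, and Kcnd2 reached 12, 11.4 and 12.6. Kcnh2, the ERG channel, was the potassium channel gene higher in Neuro2a, at 9.23, 9.32 and 10.1 against 2.26, 2.57 and 2.65 (log2 fold change 1.94 ± 0.11).

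Calcium channel genes were lower in Neuro2a in 19 of 22 cases, with a median log2 fold change of -3.12. Cacna1e, the R-type channel, measured 0.0267, 0.0666 and 0.056 in Neuro2a and 14.5, 13.3 and 14.3 in HippCulture (log2 fold change -8.12 ± 0.15). Cacna1b, the N-type channel that triggers transmitter release in sympathetic neurons, was the pore subunit with the most RNA in Neuro2a, at 7.49, 7.27 and 7.4 in Neuro2a and 27.1, 25.9 and 26.7 in HippCulture (log2 fold change -1.85 ± 0.08). The accessory subunit gene Cacna2d1 measured 0, 0.00846 and 0 in Neuro2a and 13.2, 12 and 13.3 in HippCulture, a ratio of 4181-fold, with a 95% counting interval of 750.0 to 165190.0.

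Transporters of chloride and amino acids were divided, with 10 of 18 higher in HippCulture and 8 in Neuro2a. Slc12a5, the KCC2 chloride exporter that makes GABA inhibitory, measured 1.59, 1.04 and 1.16 in Neuro2a and 29.3, 34.9 and 30.4 in HippCulture (log2 fold change -4.64 ± 0.13, adjusted p = 3e-16). Slc12a2, the chloride importer NKCC1, measured 6.69, 5.93 and 6.2 in Neuro2a and 8.3, 8.27 and 7.92 in HippCulture (log2 fold change -0.38 ± 0.09), a call lost when libraries were scaled by their totals alone (adjusted p 0.0634). Slc1a5, a glutamine transporter of dividing cells, measured 43, 39.1 and 41.4 in Neuro2a and 1.06, 1.92 and 1.16 in HippCulture (log2 fold change 4.90 ± 0.14, adjusted p = 4.7e-16). Slc38a2, another carrier of neutral amino acids, measured 47.9, 49.6 and 48 in Neuro2a and 10.1, 11.7 and 10.3 in HippCulture (log2 fold change 2.18 ± 0.08). Slc1a2, the main glutamate uptake carrier, measured 0.0342, 0.048 and 0.0196 in Neuro2a and 44.3, 42.3 and 45 in HippCulture (log2 fold change -10.25 ± 0.16), beside the astrocyte markers described above.

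Receptors for different growth factors were higher in each cell type. Ret, the signalling receptor for the GDNF family, measured 39.7, 43.4 and 42.1 in Neuro2a and 1.2, 1.67 and 1.39 in HippCulture (log2 fold change 4.88 ± 0.11, adjusted p = 2.5e-17). Ngfr, the p75 co-receptor, measured 32.4, 35.8 and 33.9 in Neuro2a and 0.642, 0.723 and 0.517 in HippCulture (log2 fold change 5.75 ± 0.13). Alk, a receptor kinase mutated in some human neuroblastomas, measured 10.3, 10.8 and 12 in Neuro2a and 0.48, 0.324 and 0.523 in HippCulture (log2 fold change 4.62 ± 0.15). Each of the 3 was higher in all Neuro2a libraries than in any HippCulture library.

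Ntrk2, the BDNF receptor, showed the reverse at 0.0175, 0.0218 and 0.0466 in Neuro2a and 24, 22.6 and 24.4 in HippCulture (log2 fold change -9.70 ± 0.16, adjusted p = 9.6e-19), and astrocytes express it as well as neurons. Bdnf itself measured 0.127, 0.152 and 0.124 in Neuro2a and 4.35, 3.84 and 4.64 in HippCulture (log2 fold change -4.96 ± 0.20). Gfra1, a ligand-binding partner of Ret, was higher in HippCulture, at 0.0411, 0.0192 and 0 against 2.11, 2.23 and 2.35. So was its relative Gfra2, at 0.0953, 0.089 and 0.254 against 3.96, 4.12 and 3.77 (log2 fold change -4.77 ± 0.27, or -5.36 without Neuro2a replicate 3), while Gfra3 was not tested. Of the 21 genes 18 were tested, 7 higher in Neuro2a and 10 in HippCulture.

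Regulators of splicing and RNA binding were divided, with 29 of 30 tested, 12 higher in Neuro2a and 14 in HippCulture. Ptbp1, of that list, and the transcriptional regulators Rest and Rcor2 were each higher in Neuro2a. Rest, the repressor of neuronal genes, measured 9.12, 8.75 and 8.93 in Neuro2a and 1.5, 1.64 and 1.22 in HippCulture (log2 fold change 2.62 ± 0.11, adjusted p = 1.4e-13). Its corepressor Rcor2 measured 25.3, 22.5 and 21.1 in Neuro2a and 4.16, 7.11 and 3.73 in HippCulture (log2 fold change 2.20 ± 0.16). Ptbp1, which represses neuronal exons, measured 50.9, 46.1 and 42.2 in Neuro2a and 5.16, 4.51 and 4.86 in HippCulture (log2 fold change 3.26 ± 0.10, adjusted p = 1.1e-15). Its paralog Ptbp2, which replaces it during neuronal differentiation, measured 6.8, 7.24 and 8.21 in Neuro2a and 16.9, 16.8 and 16.8 in HippCulture (log2 fold change -1.19 ± 0.08). Ptbp1 overlaps another gene over 20.7% of its exon bases.

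Within that list the neuronal families differed by member. Celf2, a regulator of splicing in brain and heart, measured 0.013, 0.0203 and 0.00992 in Neuro2a and 10.8, 9.39 and 10.3 in HippCulture (log2 fold change -9.37 ± 0.17). Celf1, which most cells express, was not called, at 15.3, 14.3 and 13.8 against 16.6, 14.4 and 16.3 (log2 fold change -0.13 ± 0.08, adjusted p = 0.17), and it was called higher in HippCulture without HippCulture replicate 2 (-0.23), with DESeq2 size factors (-0.20) and with at least 10 counts in every sample (-0.22). Khdrbs3, also called SLM2, measured 0.0614, 0.0573 and 0 in Neuro2a and 44.9, 43.8 and 45.6 in HippCulture (log2 fold change -9.94 ± 0.20). The ubiquitous Khdrbs1 was at 17, 18.2 and 15.6 against 15.6, 12.6 and 15.5, and its call toward Neuro2a is lost without any 1 of 4 libraries, and also with DESeq2 size factors, the DESeq2 test, no filter, at least 10 counts in every sample, or without the genes of ribosomal RNA sequence (adjusted p 0.120 to 0.245). Srrm4, which directs neuronal microexons, differed by less, at 1.11, 1 and 1.07 in Neuro2a and 3.02, 2.78 and 2.68 in HippCulture (log2 fold change -1.41 ± 0.12). Mbnl1 was higher in Neuro2a at 8.51, 8.97 and 8.12 against 2.5, 2.4 and 2.68 (log2 fold change 1.76 ± 0.08).

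Subunits of the BAF chromatin remodeller, which exchanges a progenitor set for a neuronal set when neurons leave the cell cycle, divided evenly, with 12 of 26 higher in each cell type and a median log2 fold change of 0.08. Actl6a, the progenitor subunit BAF53a, measured 18.7, 17.2 and 15.9 in Neuro2a and 3.32, 3.04 and 3.27 in HippCulture (log2 fold change 2.42 ± 0.11, adjusted p = 2e-13). Actl6b, its neuronal counterpart BAF53b, measured 1.4, 1.48 and 1.62 in Neuro2a and 10.1, 12 and 11.4 in HippCulture (log2 fold change -2.89 ± 0.12, adjusted p = 1.5e-13). In the next such pair, Ss18 of progenitors measured 16.4, 14.4 and 12.5 in Neuro2a and 2.96, 2.35 and 4.08 in HippCulture (log2 fold change 2.21 ± 0.15). Its neuronal counterpart Ss18l1 measured 3.39, 4.35 and 3.93 in Neuro2a and 18.6, 19.1 and 20.2 in HippCulture (log2 fold change -2.31 ± 0.10). Dpf1, of the neuronal set, measured 2.3, 2.42 and 2.1 in Neuro2a and 9.06, 12.4 and 9.25 in HippCulture (log2 fold change -2.16 ± 0.13). The widely expressed Dpf2 measured 5.41, 5.81 and 5.91 in Neuro2a and 3.03, 3.05 and 2.21 in HippCulture (log2 fold change 1.05 ± 0.12). The alternative ATPases were both higher in HippCulture. Smarca2 was at 0.89, 1.16 and 1.26 against 10.2, 9.54 and 10.3 (log2 fold change -3.18 ± 0.11) and Smarca4 at 27.3, 23.4 and 22.4 against 45.4, 43.6 and 47.3 (log2 fold change -0.90 ± 0.09). The calls for Smarcb1 and Smarcd1 toward Neuro2a are each lost without any 1 of 4 libraries, and also with DESeq2 size factors, the DESeq2 test, no filter, at least 10 counts in every sample, or without the genes of ribosomal RNA sequence (adjusted p 0.115 to 0.263 and 0.0731 to 0.198 over these 5), and that of Smarcb1 with the replicate block (0.0502).

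Proliferation genes were higher in Neuro2a, with 1 exception among 72. All 34 mitosis genes were called higher in Neuro2a, 32 at least 4-fold, with a median log2 fold change of 3.26, and their summed level was 508 to 748 in Neuro2a and 51.4 to 65.1 in HippCulture. Cdk1, the kinase that starts mitosis, measured 36.7, 32.8 and 27.6 in Neuro2a and 1.1, 1.36 and 1.55 in HippCulture (log2 fold change 4.60 ± 0.14, adjusted p = 8.2e-16). Cyclin Ccnb1, its partner, measured 56.7, 54.6 and 37.2 in Neuro2a and 2.74, 1.68 and 2.62 in HippCulture (log2 fold change 4.39 ± 0.17). Top2a, which untangles sister chromosomes, measured 122, 107 and 83.6 in Neuro2a and 4.91, 3.64 and 4.91 in HippCulture (log2 fold change 4.54 ± 0.14). Mki67, the antigen of dividing cells, measured 30.8, 25.8 and 21.2 in Neuro2a and 3.32, 2.23 and 3.21 in HippCulture (log2 fold change 3.15 ± 0.14). Within Neuro2a most of these genes were lowest in replicate 3, and every value in Neuro2a lay above every value in HippCulture.

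Of 38 replication genes 37 were higher in Neuro2a, 26 at least 4-fold, with a median log2 fold change of 2.38. Mcm5, a subunit of the replicative helicase, measured 35.1, 21 and 19.3 in Neuro2a and 2.77, 1.87 and 2.17 in HippCulture (log2 fold change 3.46 ± 0.21). E2f2, an activator of the S phase genes, measured 7.62, 5.05 and 4.52 in Neuro2a and 0.201, 0.242 and 0.208 in HippCulture (log2 fold change 4.71 ± 0.26). Pcna, the sliding clamp that repair also uses, differed less at 54.6, 41.5 and 38.9 in Neuro2a and 19.7, 14.2 and 18.6 in HippCulture (log2 fold change 1.36 ± 0.13). Rfc5, a clamp loader subunit, was the exception, at 9.53, 8.43 and 6.88 in Neuro2a and 15.7, 16.1 and 17.8 in HippCulture (log2 fold change -0.99 ± 0.11).

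Because these genes moved together, the 150 bases before the annotated start of their principal transcript were read from the genome (GRCm38.p6, RefSeq sequence, GENCODE starts) and searched on both strands for 3 short motifs known from cell cycle promoters. The motifs were TTTGAA (the CHR element of genes expressed in mitosis), CCAAT, and the E2F forms TTTCCCGC, TTTGGCGC and TTTCGCGC, and none of them contains another. A match is a run of letters and not a shown binding site. Of the 34 mitosis promoters, 10 (29.4%) held TTTGAA, 21 (61.8%) held CCAAT and 1 (2.94%) held an E2F form, and 9 (26.5%) held both TTTGAA and CCAAT. Of the 38 replication promoters, 1 (2.63%) held TTTGAA, 18 (47.4%) CCAAT and 7 (18.4%) an E2F form. Over all 14955 protein-coding promoters searched the shares were 5.17%, 26.7% and 1.73%, and 1.56% held both TTTGAA and CCAAT. The 32 presynaptic promoters gave 1, 7 and 1. CCAAT was also held by 9 of the 21 promoters of class I antigen presentation genes (42.9%), and an E2F form by 2 of the 30 of ribosome biogenesis genes (6.67%). The promoters of Cdc20 and Aurka (mitosis), Cdk1 (which held all 3 motifs) and Mcm6 (replication), picked after their matches were seen, are printed to show how the matches lie, 5′ to 3′ on the gene's strand and ending at the base before the start, with matches in capitals, where ATTGG and GCGCGAAA are motifs read on the other strand.
Cdc20 (chr4:118437353-118437502, minus strand): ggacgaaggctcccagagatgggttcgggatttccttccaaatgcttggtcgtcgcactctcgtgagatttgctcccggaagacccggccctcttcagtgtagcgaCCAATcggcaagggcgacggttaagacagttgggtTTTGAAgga
Aurka (chr2:172370507-172370656, minus strand): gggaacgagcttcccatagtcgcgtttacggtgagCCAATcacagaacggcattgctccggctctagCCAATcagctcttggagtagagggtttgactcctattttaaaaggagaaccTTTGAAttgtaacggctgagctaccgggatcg
Cdk1 (chr10:69352939-69353088, minus strand): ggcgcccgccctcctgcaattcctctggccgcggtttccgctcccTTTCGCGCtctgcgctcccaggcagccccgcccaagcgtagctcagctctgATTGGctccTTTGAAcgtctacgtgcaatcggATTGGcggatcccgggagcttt
Mcm6 (chr1:128359665-128359814, minus strand): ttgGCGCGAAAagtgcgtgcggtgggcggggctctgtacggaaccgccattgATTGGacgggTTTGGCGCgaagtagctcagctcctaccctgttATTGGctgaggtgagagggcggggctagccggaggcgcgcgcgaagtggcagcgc

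Counted from the start, with -1 as the base before it, TTTGAA began at -9 and CCAAT at -44 in the Cdc20 promoter. In that of Aurka TTTGAA began at -32 and CCAAT at -83 and -115. The Cdk1 promoter held TTTGAA at -45, CCAAT on the other strand at -22 and -54 and an E2F form at -105. In Mcm6 E2F forms began at -88 and, on the other strand, at -147, with CCAAT on the other strand at -55 and -98. Cdc20, an activator of the anaphase-promoting complex, measured 31.1, 30.7 and 19.5 in Neuro2a and 3.16, 2.67 and 3.4 in HippCulture (log2 fold change 3.14 ± 0.18). The mitotic kinase gene Aurka measured 18.3, 18 and 12.2 in Neuro2a and 1.21, 0.933 and 1.16 in HippCulture (log2 fold change 3.87 ± 0.19). The helicase subunit gene Mcm6 measured 28.5, 21.1 and 22.4 in Neuro2a and 4.85, 3.63 and 5.21 in HippCulture (log2 fold change 2.39 ± 0.13).

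Inhibitors, pocket proteins, D cyclins and kinases of the cell cycle were divided, with 9 of 20 higher in each cell type and a median log2 fold change of -0.29. Cdkn2a, which encodes p16 and p19ARF, was higher in the dividing line, at 20.8, 21.9 and 21.5 against 0.21, 0.448 and 0.434 (log2 fold change 5.84 ± 0.23, adjusted p = 4.3e-14). The p53 gene Trp53 was higher there too, at 5.06, 5.58 and 5.71 against 0.912, 0.973 and 1.13 (log2 fold change 2.43 ± 0.15). Cyclin D genes differed in direction. Ccnd1, which shares 23.4% of its exon bases, measured 62.2, 66.2 and 66 in Neuro2a and 8.69, 6.88 and 8.72 in HippCulture (log2 fold change 3.00 ± 0.10, adjusted p = 2.7e-15). Ccnd2 measured 0.0597, 0.0446 and 0.0273 in Neuro2a and 22.9, 20.5 and 22 in HippCulture (log2 fold change -8.88 ± 0.16, adjusted p = 2.2e-18). Cdk5r1, the activator of the neuronal kinase Cdk5, measured 1.43, 1.31 and 1.36 in Neuro2a and 76.2, 79.3 and 79.1 in HippCulture (log2 fold change -5.84 ± 0.10). The inhibitor Cdkn1b was not called, at 16.6, 18.3 and 16.1 against 16.3, 18.6 and 18.3 (log2 fold change -0.06 ± 0.09, adjusted p = 0.51). The call for Cdkn1a toward Neuro2a is lost without HippCulture replicate 1 or 3 (adjusted p 0.136 and 0.0782), with the DESeq2 test (0.0579) and with at least 10 counts in every sample (0.0596).

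Ribosome biogenesis genes were higher in Neuro2a in 27 of 30 cases, 4 at least 4-fold, with a median log2 fold change of 1.57, and none was higher in HippCulture. Npm1, the nucleolar protein nucleophosmin, measured 445, 475 and 472 in Neuro2a and 59.4, 62.9 and 58.5 in HippCulture (log2 fold change 2.94 ± 0.08, adjusted p = 5.2e-16). Utp4, of pre-rRNA processing, measured 32.8, 31 and 30.1 in Neuro2a and 4.52, 5.74 and 5.2 in HippCulture (log2 fold change 2.60 ± 0.10). The pre-rRNA methylase gene Fbl measured 25.2, 20.6 and 22.5 in Neuro2a and 5.72, 5.3 and 5.29 in HippCulture (log2 fold change 2.07 ± 0.10). Odc1, the rate-limiting enzyme of polyamine synthesis and a Myc target, measured 175, 169.9 and 168 in Neuro2a and 44.8, 52.8 and 44.8 in HippCulture (log2 fold change 1.85 ± 0.09). Ubtf, Rrp9 and Nop10 were not called.

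All 21 genes of class I antigen presentation were called higher in Neuro2a, 10 at least 4-fold, with a median log2 fold change of 1.94. B2m, the light chain of class I molecules, measured 149, 131 and 158 in Neuro2a and 12.9, 13.7 and 11.2 in HippCulture (log2 fold change 3.53 ± 0.11, adjusted p = 1.6e-15). The heavy chain gene H2-K1 measured 64.7, 62.1 and 60.5 in Neuro2a and 2.45, 7.75 and 3.56 in HippCulture (log2 fold change 3.78 ± 0.21). Another, H2-D1, measured 48.8, 46.9 and 50.3 in Neuro2a and 5.48, 8.34 and 6.61 in HippCulture (log2 fold change 2.84 ± 0.11), and as heavy chain genes are close copies, their levels are uncertain in the same way. Psmb8, an immunoproteasome subunit, measured 17.1, 17.2 and 17.5 in Neuro2a and 0.135, 0.0959 and 0.093 in HippCulture (log2 fold change 7.24 ± 0.20, adjusted p = 2.9e-16). The peptide transporter gene Tap2 measured 13.3, 14.9 and 15.1 in Neuro2a and 0.423, 0.729 and 0.471 in HippCulture (log2 fold change 4.74 ± 0.16). Genes of general protein folding on the list differed less, such as Calr at 179.8, 163 and 159 in Neuro2a and 95.2, 109 and 101 in HippCulture (log2 fold change 0.72 ± 0.08).

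Glycolytic genes were mostly higher in Neuro2a, 15 of 22 against 6 higher in HippCulture, with a median log2 fold change of 1.10, and the counts were the same without HippCulture replicate 2. Slc16a3, the lactate exporter MCT4, measured 93.3, 103 and 85.9 in Neuro2a and 0.786, 1.85 and 0.454 in HippCulture (log2 fold change 6.52 ± 0.23, or 7.19 without HippCulture replicate 2). Ldha, which makes lactate, measured 395, 485 and 403 in Neuro2a and 96, 156 and 96.7 in HippCulture (log2 fold change 1.88 ± 0.15, or 2.11 without that library). Ldhb, the isoform of oxidative tissues, measured 0.0716, 0 and 0.0818 in Neuro2a and 54.7, 52.6 and 57.2 in HippCulture, a ratio of 1129-fold, with a 95% counting interval of 312 to 9325 toward HippCulture. Pkm, pyruvate kinase, measured 532, 610.2 and 541 in Neuro2a and 125, 169 and 132 in HippCulture (log2 fold change 1.98 ± 0.11, or 2.08 without it). Hexokinase Hk2 measured 28.5, 33.5 and 28.5 in Neuro2a and 1.34, 9.85 and 1.09 in HippCulture, so that replicate 2 alone of the HippCulture libraries was close to 10. Its fold change was 2.90 with that library and 4.59 without it. Slc2a1, the glucose transporter GLUT1, measured 20.7, 21.9 and 20.2 in Neuro2a and 1.65, 10.4 and 2.14 in HippCulture, and its fold change was 2.16 with replicate 2 and 3.42 without it. Among the genes higher in HippCulture, Eno2, the enolase of neurons, measured 17, 22.7 and 20.3 in Neuro2a and 26.2, 32 and 26.5 in HippCulture (log2 fold change -0.50 ± 0.10). Aldoc, the aldolase of astrocytes, measured 17.1, 28.5 and 23.5 in Neuro2a and 50.8, 57.2 and 53.8 in HippCulture (log2 fold change -1.23 ± 0.13).

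**Figure D4:**
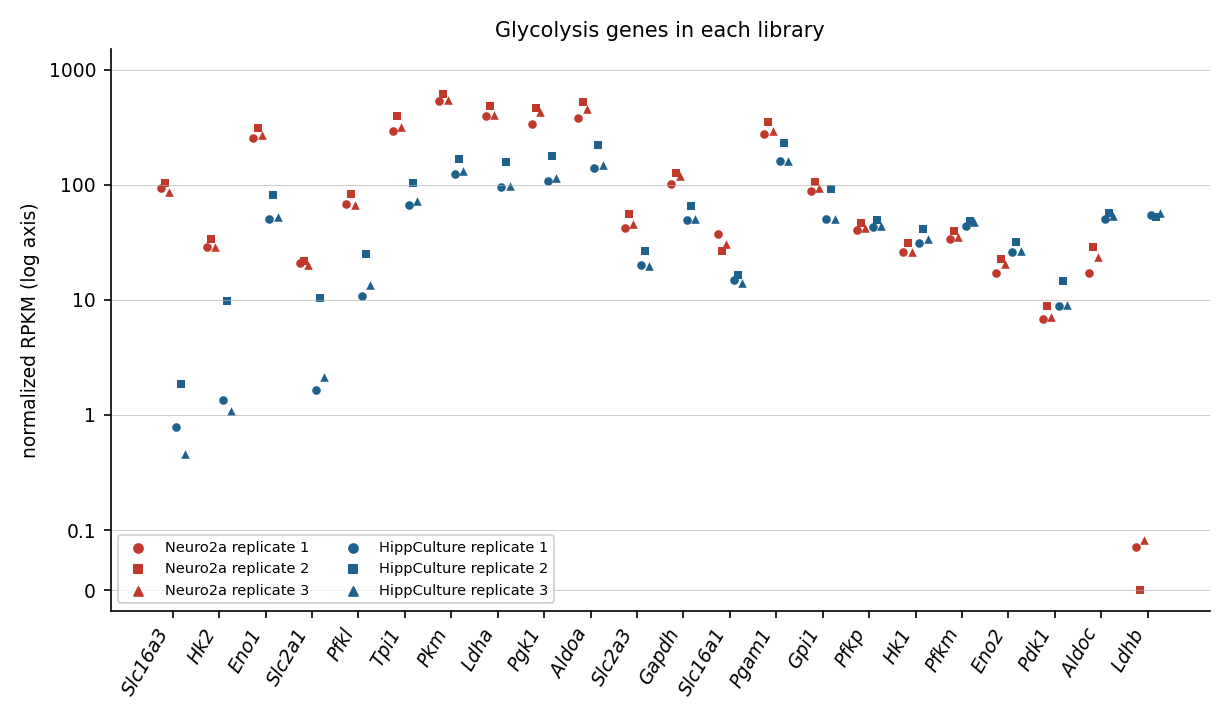
Normalized RPKM (log scale) of the 22 glycolysis and glucose or lactate transport genes in each library, 1 symbol per library, with HippCulture replicate 2 marked. Replicate 2 lies above the other HippCulture libraries for most genes, and for Hk2 it reads 9.85 while the others read 1.34 and 1.09.

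Immediate early genes, which neurons switch on with activity and other cells with growth factors, were divided, 8 of 22 higher in Neuro2a, 10 in HippCulture and 4 not called. Arc, a regulator of synaptic strength, was higher in the tumour line at 16.4, 20.3 and 16.1 against 1.33, 1.93 and 1.08 (log2 fold change 3.61 ± 0.16, adjusted p = 3.2e-13). The zinc finger factor Egr1 was too, at 7.47, 5.36 and 6.1 against 0.85, 0.497 and 0.964 (log2 fold change 3.02 ± 0.19). The nuclear receptor gene Nr4a3 was higher in HippCulture, with Neuro2a at 0.582, 1.02 and 0.493 and HippCulture at 19.7, 16.6 and 19.6 (log2 fold change -4.71 ± 0.16). Npas4, which neuronal activity induces, measured 0.137, 0.032 and 0 in Neuro2a and 0.863, 1.4 and 0.854 in HippCulture, and its fold change of -4.05 becomes -5.55 without Neuro2a replicate 1. Fos was not called, at 2.06, 3.12 and 2.57 against 1.88, 3.74 and 2.16 (log2 fold change 0.01 ± 0.24, adjusted p = 0.98). Ier3, which responds to stress, measured 21.8, 19.8 and 21.3 in Neuro2a and 1.52, 6.5 and 1.35 in HippCulture, with a fold change of 2.76, or 3.81 without HippCulture replicate 2. The stress factor Atf3 measured 9.13, 8.63 and 9.66 in Neuro2a and 1.03, 3.41 and 1.3 in HippCulture, with a fold change of 2.27, or 2.92 without that library. Both were highest in replicate 2 among the HippCulture libraries.

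Imprinted genes, expressed from 1 parental copy, were mostly higher in HippCulture. Of 30 genes 27 were tested, 20 higher in HippCulture, 16 of them at least 4-fold, and 6 in Neuro2a. Among the maternally expressed noncoding RNAs of the Dlk1 domain, Meg3 measured 0.0994, 0.226 and 0.177 in Neuro2a and 135, 128 and 123 in HippCulture (log2 fold change -9.57 ± 0.17). Its neighbour Rian, a host of small nucleolar RNAs, measured 0.82, 1.07 and 1.08 in Neuro2a and 59.9, 54 and 61.4 in HippCulture (log2 fold change -5.88 ± 0.12). Mirg, a host of miRNAs, measured 0.293, 0.274 and 0.335 in Neuro2a and 9.93, 10.8 and 9.92 in HippCulture (log2 fold change -5.09 ± 0.13). Nnat, a paternally expressed membrane protein of the brain, measured 2.4, 2.58 and 2.18 in Neuro2a and 399.5, 432 and 439 in HippCulture (log2 fold change -7.46 ± 0.12). Besides Ndn, the genes Magel2 and Snrpn of the Prader-Willi domain were higher in HippCulture. Snrpn, with 34.1% of its exon bases shared, measured 6.4, 6.61 and 4.94 in Neuro2a and 144, 141 and 150.3 in HippCulture (log2 fold change -4.59 ± 0.11). The 6 genes higher in Neuro2a were Mest, Peg10, Sgce, Slc22a18, Impact and Nespas. Mest, with 23.1% shared, measured 79.2, 76.5 and 77 in Neuro2a and 20.1, 20.2 and 20.7 in HippCulture (log2 fold change 1.93 ± 0.08). The retrotransposon-derived gene Peg10 measured 9.78, 11.4 and 10.8 in Neuro2a and 1.75, 1.79 and 1.62 in HippCulture (log2 fold change 2.63 ± 0.11). Its neighbour Sgce, which encodes epsilon-sarcoglycan, measured 4.19, 4.89 and 4.85 in Neuro2a and 1.09, 1.19 and 0.815 in HippCulture (log2 fold change 2.17 ± 0.13).

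Long noncoding RNAs differed in both directions. Of 2462 tested genes 832 were higher in Neuro2a and 950 in HippCulture, with a median log2 fold change of -0.08. By the rule of largest difference, the genes toward Neuro2a were Gm47243, Gm49116, Gm28321, Gm34030, G730013B05Rik and Gm28187, and those toward HippCulture were Gm10308, Gm26673, C230034O21Rik, Gm13872, C130071C03Rik and Gm9748. Gm28321 (chr1:50815375-50817701) measured 8.65, 8.66 and 8.99 in Neuro2a and 0 in all 3 in HippCulture and was at least 160.4-fold higher in Neuro2a. Gm34030 (chr8:57331692-57334585) lies downstream of Hand2 and measured 9.59, 11.5 and 11.1 in Neuro2a and 0 in all 3 in HippCulture, with 74.4% of its exon bases shared with another gene. C130071C03Rik (chr13:83721381-83884194) measured 0, 0 and 0.0227 in Neuro2a and 18.3, 14.8 and 18.5 in HippCulture. Gm10308 shares all of its exon bases with another gene and Gm9748 is antisense to Pcdh8, and without use of the strand their reads cannot be told from those of the partner.

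Known nuclear lncRNAs were expressed in both cell types at different levels. Of 46 listed lncRNAs 40 were found and 35 tested, 14 higher in Neuro2a and 20 in HippCulture. Miat, also called Gomafu, measured 279, 336 and 407 in Neuro2a and 47.2, 46.6 and 44.4 in HippCulture (log2 fold change 2.89 ± 0.12, adjusted p = 9.3e-14), and 30.4% of its exon bases are shared. Malat1, of nuclear speckles, measured 391, 563 and 607 in Neuro2a and 913, 901 and 788 in HippCulture (log2 fold change -0.74 ± 0.13). Neat1, the scaffold of paraspeckles, measured 13.9, 17 and 21.5 in Neuro2a and 0.61, 1.74 and 0.459 in HippCulture (log2 fold change 4.23 ± 0.29, or 4.98 without HippCulture replicate 2). Tug1 measured 8.52, 9.36 and 8.84 in Neuro2a and 27.6, 22.2 and 28 in HippCulture (log2 fold change -1.54 ± 0.09). Firre, an X-linked nuclear RNA, measured 0.0545, 0.0382 and 0.0467 in Neuro2a and 5.34, 6.65 and 5.41 in HippCulture (log2 fold change -6.91 ± 0.21). Crnde, raised in many tumours, measured 6.63, 7.34 and 6.94 in Neuro2a and 0.366, 0.195 and 0.315 in HippCulture (log2 fold change 4.53 ± 0.25).

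Host genes of neuronal miRNAs were higher in HippCulture and the host of a proliferation cluster was higher in Neuro2a. Mature miRNAs were not measured, so only the host RNA is compared. Mir124a-1hg measured 0.749, 0.546 and 0.481 in Neuro2a and 7.52, 8.55 and 7.68 in HippCulture (log2 fold change -3.73 ± 0.15). Mir124-2hg measured 0, 0 and 0.0214 in Neuro2a and 2.68, 2.71 and 2.07 in HippCulture. Mir9-3hg measured 0, 0 and 0.0294 in Neuro2a and 2.79, 3.67 and 3 in HippCulture. All 3 are hosts of miRNAs abundant in neurons. Mir99ahg measured 0.04, 0.0972 and 0.064 in Neuro2a and 1.79, 1.51 and 1.61 in HippCulture (log2 fold change -4.57 ± 0.22). Mir17hg, the host of the miR-17-92 cluster, measured 5.28, 6.59 and 5.66 in Neuro2a and 0.661, 0.631 and 0.468 in HippCulture (log2 fold change 3.31 ± 0.19, adjusted p = 9.4e-12). From the mature sequences that lie inside these hosts (GRCm38.p6, RefSeq), 12 well known arms were picked, and the other arms are not shown. They are printed in DNA letters, 5′ to 3′, with the seed, bases 2 to 8, in capitals, because the seed is the part that pairs with target messages.
miR-124-3p (hosts Mir124a-1hg and Mir124-2hg): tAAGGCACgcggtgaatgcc
miR-9-5p (host Mir9-3hg): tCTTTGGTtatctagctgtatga
miR-99a-5p (host Mir99ahg): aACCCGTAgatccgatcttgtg
let-7c-5p (host Mir99ahg): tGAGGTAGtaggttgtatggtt
miR-125b-5p (host Mir99ahg): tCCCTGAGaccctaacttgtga
miR-134-5p (host Mirg): tGTGACTGgttgaccagagggg
miR-17-5p (host Mir17hg): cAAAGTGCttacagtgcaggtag
miR-20a-5p (host Mir17hg): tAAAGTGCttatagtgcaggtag
miR-18a-5p (host Mir17hg): tAAGGTGCatctagtgcagatag
miR-19a-3p (host Mir17hg): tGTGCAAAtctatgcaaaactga
miR-19b-3p (host Mir17hg): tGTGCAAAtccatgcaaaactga
miR-92a-3p (host Mir17hg): tATTGCACttgtcccggcctg

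In the Mir17hg cluster miR-17-5p and miR-20a-5p share the seed AAAGTGC, and miR-19a-3p and miR-19b-3p share GTGCAAA. None of the seeds shown for the hosts higher in HippCulture is among them.

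Genes of the sex chromosomes differed as well. Xist, the RNA that coats the inactive X, was present in all libraries at 52.9, 58.8 and 56 in Neuro2a and 15.8, 14.7 and 14.1 in HippCulture (log2 fold change 1.91 ± 0.08), and it overlaps its antisense partner Tsix over 12.4% of its exon bases. Y-linked genes had no count in any Neuro2a library. The helicase gene Ddx3y measured 4.28, 4.54 and 4.5 in HippCulture and was at least 202-fold higher, and Kdm5d, Eif2s3y and Uty were the other 3 of the 4 tested among 7 listed.

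By position, among the autosomes and X the medians of protein-coding genes on chromosome 15 and chromosome X lay farthest from that of all, while the 5 tested genes of chromosome Y, all higher in HippCulture, had a median log2 fold change of -9.89. On chromosome 15, 372 of 624 genes were higher in Neuro2a and 196 in HippCulture, with a median log2 fold change of 0.77 against -0.03 over all protein-coding genes, and the medians of its 20-megabase bins ran from -0.03 to 1.32. On chromosome X, 319 of 535 genes were higher in HippCulture and 167 in Neuro2a, with a median of -0.95 and bin medians from -5.34 to -0.23. The 35 X genes between 80 and 100 megabases had the lowest bin median. Other autosomes had medians between -0.43 and 0.36. Genes of a chromosome are not independent of each other, and the number of copies of each chromosome was not measured here.

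**Figure D5:**
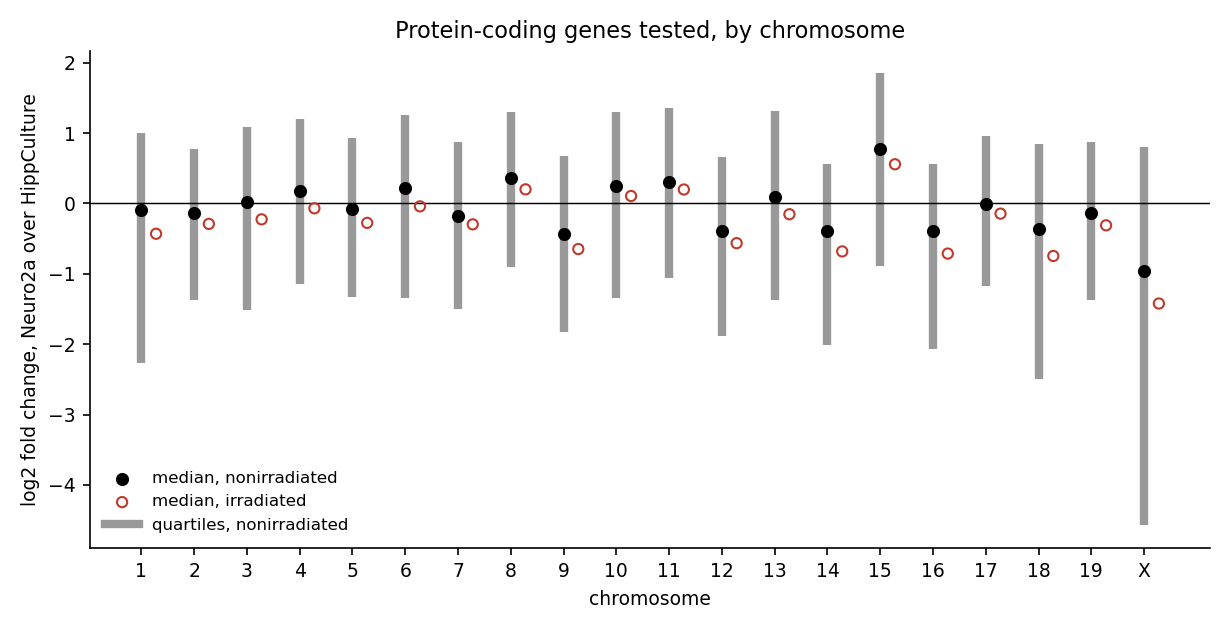
Median log2 fold change of Neuro2a over HippCulture for tested protein-coding genes of each chromosome (filled circles, with bars from the lower to the upper quartile), and the same median in the irradiated libraries (open circles). Of the autosomes and X drawn, chromosome 15 is highest in both sets of libraries, at 0.77 and 0.56, and chromosome X lowest, at -0.95 and -1.42.

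Some abundant genes were not called and had fold changes close to 0. Under the rule of the smallest difference at high level, these were Hspa4, Ndufc2, Matr3, Actb, Tomm70a and Lamp1. Actb, the cytoskeletal actin, measured 1089, 995 and 941 in Neuro2a and 948, 994 and 1038 in HippCulture (log2 fold change 0.02 ± 0.09). Lamp1, a lysosomal membrane protein, measured 85.8, 78.7 and 78.3 in Neuro2a and 80.8, 84.2 and 83.7 in HippCulture (log2 fold change -0.03 ± 0.08). Gapdh, a common reference gene, was higher in Neuro2a at 102, 127 and 119 against 49.6, 65.6 and 50.2 (log2 fold change 1.07 ± 0.11, adjusted p = 4.4e-08). The standard errors of the 6 ran from 0.08 to 0.10.

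Among the 10 genes with the most counts, 7 were the same in both cell types, the 3 of ribosomal RNA sequence, Lars2, Rn7sk, mt-Rnr2 and Gm26917. Rn7sk, a regulator of transcription elongation, measured 22681, 31588 and 28766 in Neuro2a and 19412, 22938 and 21682 in HippCulture (log2 fold change 0.37 ± 0.12), a call lost without Neuro2a replicate 2 or HippCulture replicate 1 (adjusted p 0.129 and 0.102) or with at least 10 counts in every sample (0.0938). Lars2, a mitochondrial tRNA synthetase gene, measured 2999, 2703 and 3088 in Neuro2a and 3326, 2642 and 5324 in HippCulture and was not called, with HippCulture replicate 3 the highest library, and it was called higher in HippCulture without HippCulture replicate 1 or 2 (-0.50 and -0.61) and under 4 other alternatives (-0.43 with DESeq2 size factors, -0.41 with no filter, -0.30 with the replicate block and -0.41 without the genes of ribosomal RNA sequence). The share of counts on Lars2 was 3.47%, 3.17% and 3.58% in Neuro2a and 3.66%, 2.98% and 5.07% in HippCulture. That on Gm42418, of ribosomal RNA sequence, was 5.57%, 4.88% and 5.60% against 5.52%, 4.87% and 7.94%. The log2 fold changes of Lars2 and Gm42418 were both -0.36. Whether Lars2 counts come from reads of ribosomal RNA was not tested, so its level as mRNA is uncertain. Eef1a1, mt-Co1 and Rmrp completed the 10 in Neuro2a. Eef1a1, a translation factor, measured 2727, 3229.9 and 3162 in Neuro2a and 1371, 1527 and 1495 in HippCulture (log2 fold change 1.05 ± 0.10). Rmrp, the RNA of RNase MRP, shares all of its exon bases with another gene and measured 15852, 18406 and 15191 in Neuro2a and 4362, 5455 and 4961 in HippCulture (log2 fold change 1.74 ± 0.11). Malat1, Gm10800 and Ccnb1ip1 completed the 10 in HippCulture.

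The contrast was also computed in the irradiated libraries of the same cell types, which share no sample with the nonirradiated ones. Of 16834 genes called here 14805 were tested there, and 14102 of them (95.3%) had the same sign. Of 6309 genes that were at least 4-fold different here and tested there, 6307 had the same sign. Lists differed in this. Of called members tested there, 19 of 26 splicing and RNA-binding regulators and 21 of 24 BAF subunits had the same sign, against 34 of 34 mitosis genes.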

How the data were processed

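Total RNA of nonirradiated cells, depleted of ribosomal RNA, was sequenced on a HiSeq instrument. The authors aligned the reads to mm10 with TopHat2 2.1.1 and deposited raw counts per gene and sample, made with featureCounts 1.6.1 on exons of GENCODE mouse genes with reads allowed to count for every overlapping gene. The command recorded per the file headers leaves the tool at its defaults, under which strand is ignored and reads with several positions are not counted. No normalization had been applied to the counts. Library totals were 7450065 to 9163323 counts, and the biological coefficient of variation was 0.0892 in Neuro2a and 0.0752 in HippCulture.

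From the counts, genes with a mean CPM of at least 0.5 in either cell type were kept, scaled by TMM and tested with edgeR 4.0.16 (quasi-likelihood, R 4.3.3), with Benjamini-Hochberg adjustment over all tested genes. On simulated counts the test called 92% of genes changed by a log2 fold of 1 and 100% of those changed by 2, with 4.95% false calls. In that simulation only 200 of 20940 genes changed, in equal numbers up and down. They were drawn from genes with more counts, and all genes had the same dispersion. The cell types differ in most genes, so these rates need not hold for the comparison of them. DESeq2 1.42.0 was an alternative, with others of scaling, filter, samples and block. Class shares were compared by an exact permutation test (scipy 1.17.1). Genes were named by rule: up to 4 list members a direction with the largest fold change and members whose role is described, the 12 protein-coding genes a direction with the largest fold change at a mean TPM of at least 50 and no overlap, the 6 lncRNA genes a direction at a mean CPM of at least 10, the 10 genes with the most counts, and the 6 with the smallest fold change at a TPM of at least 100 in both. Some genes that the rules name are not reported here. The members and the lists were chosen with earlier results of these data known. Gene classes and positions came from a later GENCODE release on the same build, in which 99.82% of the genes were matched. Promoter and miRNA sequences were read from RefSeq's GRCm38.p6. Tables of the other samples were not used, apart from the irradiated libraries of the same cell types.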

Additional observations from a re-analysis of the deposited data

How the results depend on the processing

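The 4 counts of genes called stayed within 1.5 times of the values reported under every alternative run but 1. With only the 12157 genes that had at least 10 counts in every sample, 4939 were higher in Neuro2a and 4915 in HippCulture, 917 and 1175 of them at least 4-fold, which follows from leaving out the genes that are near 0 in 1 cell type. Under the other alternatives of scaling, test, filter and samples, 7097 to 8702 genes were higher in Neuro2a and 7998 to 9369 in HippCulture. With library sizes alone the median log2 fold change over all genes moved from -0.02 to 0.12. Leaving out each library in turn gave 7537 to 7985 and 8432 to 8725 genes, and 3011 to 3128 and 4681 to 4781 at least 4-fold. With the replicate block 8053 and 8588 genes were called, but samples of the same number did not deviate together (r 0.021, 0.018 and -0.016 for numbers 1, 2 and 3), so the numbers do not pair the samples. When each cell type's 10 top genes by count were left out, lncRNA genes differed by 0.0645 percentage points of counts in place of 0.443 and pseudogenes by 0.166 in place of 0.131. The share of protein-coding genes changed sign without HippCulture replicate 3 and ran from -1.42 to 2.65 percentage points. Of 1092 list counts under alternatives, 1024 stayed within 1.5 times of the reported count.

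Of 230 genes with values in the text, 212 kept direction and call under every alternative run that tested them. Genes with fewer than 10 counts in any sample were not tested under the alternative of at least 10 counts in every sample. Genes that were not called changed sign as follows. Actb was at -0.0486 with DESeq2 size factors and with the DESeq2 test, -0.0242 with no filter, -0.0706 with at least 10 counts in every sample, -0.0290 without the genes of ribosomal RNA sequence, and -0.0658 to 0.0656 without single libraries. Fos was at -0.0636, -0.0693, -0.0399, -0.0865 and -0.0449 under the same 5 alternatives in that order, and -0.238 to 0.313 without single libraries. With library sizes alone Cdkn1b was at 0.0746, Celf1 at 0.0121, Chrm4 at 0.0394, Lamp1 at 0.101 and Slc18a2 at 0.0738. With all 12 mouse samples Cdkn1b was at 0.0141, Lamp1 at 0.0407 and Slc18a2 at 0.0182. Without single libraries Chrm4 ran from -0.232 to 0.0278, Elavl4 from -0.0120 to 0.340 and Slc18a2 from -0.348 to 0.134. The causes were not tested.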

Other observations

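Germ cell genes were not all higher in Neuro2a, although some of the largest differences came from them. The list and that of the Rhox genes were drawn up after values were seen, so they are descriptions. Of 30 germ cell genes 17 were tested, 6 higher in Neuro2a and 7 in HippCulture. Besides Asz1 and Sohlh2, Sycp1, which joins paired chromosomes in meiosis, measured 1.9, 2.21 and 2.24 in Neuro2a and 0 in all 3 in HippCulture and was at least 59.2-fold higher in Neuro2a. Piwil4, a partner of piRNAs, measured 0.376, 0.253 and 0.215 in Neuro2a and 0 in all 3 in HippCulture and was at least 12-fold higher. In the other direction, Nanos3, which protects germ cell precursors, had no count in Neuro2a and measured 0.798, 0.284 and 0.688 in HippCulture, where it was at least 4.81-fold higher. Dazl, an RNA-binding protein of germ cells, measured 0, 0 and 0.0436 in Neuro2a and 0.46, 0.535 and 0.519 in HippCulture, and Mael had no count in any library.

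The Rhox homeobox genes, an X-linked cluster best known from reproductive tissue (chrX:37213804-37841275 for the tested members), were tested in 12 of 34 cases, all through Neuro2a, and all 12 were higher there. Rhox5 measured 284, 256 and 254 in Neuro2a and 0, 0 and 0.675 in HippCulture (log2 fold change 10.08 ± 0.24, or 9.46 without HippCulture replicate 1 and 13.71 without HippCulture replicate 3). Rhox2d measured 53.5, 50.3 and 59.2 in Neuro2a and 0 in all 3 in HippCulture and was at least 291-fold higher. The Rhox2 genes are close copies of each other, and since reads with several positions were not counted by the tool's default, the levels of each copy are uncertain. Rhox6, Rhox9 and Rhox11 had no count in any library.

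Of the 13 mRNAs of the mitochondrial genome, 6 (mt-Atp6, mt-Atp8, mt-Co2, mt-Co3, mt-Nd3 and mt-Nd4l) were at no more than 0.502 RPKM in every library of both cell types. Reads with several positions were not counted by the tool's default. Whether this lowered the counts of those 6 genes was not tested, so their levels are uncertain. By contrast, mt-Co1 measured 2934, 3584 and 3195 in Neuro2a and 2091, 2163 and 2064 in HippCulture (log2 fold change 0.62 ± 0.09). The other 7 were tested, 3 were higher in Neuro2a and 4 were not called, and without HippCulture replicate 2 those 4 were called higher in HippCulture.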
